A study of Homo sapiens with 6 samples.

Results

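The genes described here are 10 inhibitors of transforming growth factor beta (TGF-β) signalling: SMAD6, SMAD7, SKI, SKIL, PMEPA1, LDLRAD4, BAMBI, SMURF1, SMURF2 and TGIF1. They were chosen by symbol from the 27830 genes of the deposited table. All 10 had a row of their own and passed the filter on low counts, which left 14463 genes for testing. The cells were LX-2, an established, immortalised human hepatic stellate cell line, and stellate cells are the main source of scar matrix in the liver. RNA was sequenced from 3 control samples, which received no treatment, and 3 samples given 10 ng/ml TGF-β1 for 24 h. The treated cells were in serum-free medium, and the medium of the controls is not stated, so a difference in serum cannot be told apart from TGF-β1. Whether the 3 samples of 1 group came from different cultures is not in the labels. The p-values therefore describe the spread among these 6 samples and may reflect technical spread only.

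TGF-β binds a receptor pair that phosphorylates SMAD2 and SMAD3, and these enter the nucleus with SMAD4 and bind DNA. Several of the genes that this complex switches on encode proteins that weaken the signal again, which is why the pathway is known for negative feedback. The inhibitors act at successive steps: SMAD6, SMAD7 and BAMBI at the receptors, PMEPA1 and LDLRAD4 on the SMADs before they are phosphorylated, SKI, SKIL and TGIF1 as corepressors on DNA, and the SMURF ubiquitin ligases by marking receptors and SMADs for breakdown.

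SMAD3 and SMAD4 are known to bind the palindrome GTCTAGAC and the CAGA box. The 250 bases before each RefSeq start site (GRCh38.p14) were searched on both strands for GTCTAGAC and for CAGACA, neither of which contains the other, and for the GC-rich SMAD motifs GGCGC and GGCCG, which can overlap each other. RefSeq gave 28 windows for 9 of the 10 genes; SKI was not matched. GTCTAGAC was in 1 of the 28 windows, of SMAD6, and in 0.182% of all 35116 windows. CAGACA was in 8 of the 28, of PMEPA1, LDLRAD4 and TGIF1, and in 13.6% of all windows. GGCGC was in 19 and GGCCG in 20 of the 28, against 44.5% and 44.7% of all windows. The GC content of the 28 windows ran from 35.2% to 82.0%. LDLRAD4 and TGIF1 have several windows each, some overlapping, so the windows are not independent. By gene, GTCTAGAC was in 1, CAGACA in 3, GGCGC in 8 and GGCCG in 9 of the 9. The shares of all 27305 genes were 0.231%, 16.3%, 48.1% and 48.0%. These stretches of 30 bases are shown because they hold a match to GTCTAGAC or CAGACA, in capitals. LDLRAD4 and TGIF1 had further matches in other windows.
SMAD6: ccgcggagccgccaaagtGTCTAGACtggc
PMEPA1: cccttgggcagCAGACAatgggtgtggatt
LDLRAD4: agcacacaagcCAGACAgatggtggcttag
TGIF1: aatcccagccaCAGACAacccttcaaacga
The SMAD6 stretch is chr15:66702206-66702235 on the plus strand, and its match begins 12 bases before the start site. GENCODE 29 places the last 8 bases of this stretch, and so part of the match, in an exon of SMAD6. The PMEPA1 stretch is chr20:57710674-57710703 on the minus strand, in bases that GENCODE 29 also places in exons of PMEPA1 or of NKILA, an antisense transcript. The LDLRAD4 stretch is chr18:13277239-13277268 and the TGIF1 stretch chr18:3448315-3448344, both on the plus strand and outside annotated exons. A match describes these letters only and is no sign of binding.

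Of the 10 inhibitors, PMEPA1 alone passed the test of TGF-β1 against control, and it rose 2.42-fold. SKIL, SMURF2 and SMAD7 had higher mean levels with TGF-β1 but did not pass, and no inhibitor passed as lower. Of the 14463 genes tested, 0.366% passed, 0.187% as higher and 0.180% as lower. The log2 difference was above 0 for 7 of the 10 and below 0 for 3, with a median of 0.23 against 0.0070 over all genes tested. Levels of the groups did not overlap for PMEPA1, SMURF2 and SMAD7, all higher with TGF-β1, and for TGIF1, lower with TGF-β1. The background for such separation was 7.93% of genes as higher and 9.12% as lower.

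**Figure D1:**
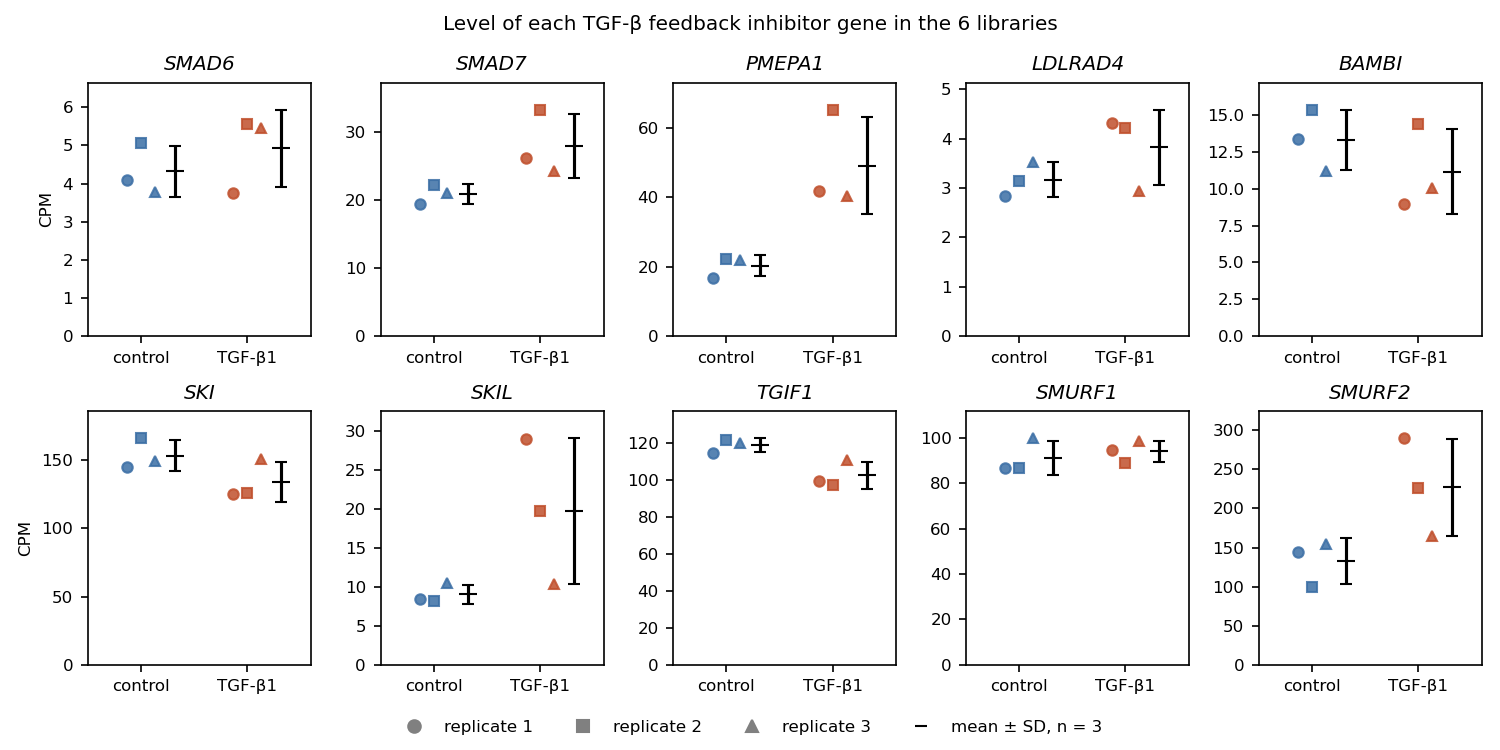
Level of each of the 10 genes in CPM (counts scaled to library size, y axis from 0, own scale per gene) in the 3 control and 3 TGF-β1 libraries; each symbol is 1 library and the bar is the mean ± SD of 3. PMEPA1 lies between 16.8 and 22.2 CPM in controls and between 40.3 and 65.2 CPM with TGF-β1, while SKIL with TGF-β1 runs from 10.3 to 28.97 CPM.

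SMAD7 is the general inhibitory SMAD: it occupies the activated receptor and brings the SMURF ligases to it. It had 19.4, 22.2 and 21.0 CPM (counts scaled to library size) in control replicates 1 to 3, and 26.1, 33.2 and 24.3 CPM in TGF-β1 replicates 1 to 3. Every treated library was above every control. The means were 20.9 ± 1.42 and 27.9 ± 4.72 CPM (SD, n = 3 per group), a log2 difference of 0.42 ± 0.17 (SE), and edgeR's adjusted p was 0.268. The 95% interval of the difference, 0.043 to 0.79, holds for this gene alone and is not adjusted for the number of genes. SMAD7 lies on chromosome 18 from 48919853 to 48952052 of GRCh38, minus strand.

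SMAD6, the inhibitory SMAD that acts mainly on bone morphogenetic protein (BMP) signals, was expressed at a lower level. It had 4.10, 5.07 and 3.78 CPM in the controls and 3.77, 5.57 and 5.44 CPM with TGF-β1, from only 58 to 94 counts per library. The groups overlapped, and TGF-β1 replicate 1 was at the level of the lowest control. The log2 difference was 0.19 (95% interval -0.33 to 0.70; adjusted p by edgeR = 0.738). SMAD6 lies on chromosome 15 from 66702228 to 66782848, plus strand.

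PMEPA1 is a membrane protein that holds SMAD2 and SMAD3 away from the receptor and is a well-known TGF-β target. Its levels were 16.8, 22.2 and 22.0 CPM in the controls and 41.8, 65.2 and 40.3 CPM with TGF-β1, so the lowest treated library was well above the highest control. The mean went from 20.3 ± 3.09 to 49.1 ± 13.96 CPM (SD, n = 3 per group), a log2 difference of 1.27 ± 0.21 (SE; edgeR adjusted p = 0.0314). Its p ranked 31st of the 14463. The call did not hold without control replicate 1 (edgeR adjusted p = 0.181), control replicate 3 (0.127) or TGF-β1 replicate 2 (0.246), nor on library totals alone (0.0524). The share of all genes that passed in those fits was 0.0875%, 0.101%, 0.0271% and 0.325%, and the log2 difference of PMEPA1 stayed at 1.01 or above. PMEPA1 lies on chromosome 20 from 57648392 to 57711536, minus strand. Of its exon bases, 6.10% are shared with NKILA on the opposite strand, which had 24 to 53 counts per library against 237 to 1100 for PMEPA1.

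LDLRAD4, a relative of PMEPA1 with the same way of acting on SMAD2 and SMAD3, had the lowest level of the 10. It had 40 to 71 counts per library, which is 2.83, 3.15 and 3.54 CPM in the controls and 4.31, 4.21 and 2.94 CPM with TGF-β1. TGF-β1 replicates 1 and 2 were above the controls and replicate 3 was among them. Its log2 difference was 0.27 (95% interval -0.25 to 0.80; adjusted p by edgeR = 0.618). The gene lies on chromosome 18 from 13217498 to 13652755, plus strand.

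BAMBI is a decoy receptor that has no kinase domain. It had 13.4, 15.3 and 11.2 CPM in the controls and 8.99, 14.4 and 10.1 CPM with TGF-β1. The groups overlapped: TGF-β1 replicate 2 was inside the control range and the other two were below it. The log2 difference was -0.25 (95% interval -0.73 to 0.22; adjusted p by edgeR = 0.613). BAMBI lies on chromosome 10 from 28677342 to 28682939, plus strand, with no exon base shared with another gene.

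The nuclear corepressors come next. SKI, which binds the SMAD complex and recruits histone deacetylases, had 145, 166 and 149 CPM in the controls and 125, 126 and 151 CPM with TGF-β1. Its log2 difference was -0.20 (95% interval -0.48 to 0.084, edgeR adjusted p = 0.491), with TGF-β1 replicate 3 inside the control range. SKIL, also called SnoN, is known to be degraded soon after TGF-β reaches a cell and then to be made again as a feedback product. It had 8.41, 8.22 and 10.4 CPM in the controls and 28.97, 19.7 and 10.3 CPM with TGF-β1. TGF-β1 replicates 1 and 2 were clearly above the controls, and replicate 3 was at their upper end. The means were 9.02 ± 1.22 and 19.7 ± 9.33 CPM (SD, n = 3 per group), a 2.18-fold difference (log2 1.13 ± 0.31, SE), and the gene missed the threshold (edgeR adjusted p = 0.146). It passed in edgeR without TGF-β1 replicate 1 (adjusted p = 0.0365) or without TGF-β1 replicate 3 (0.00466), fits in which 2.20% and 11.2% of all genes passed. It also passed in edgeR with no filter on low counts (adjusted p = 2.26e-05) and in DESeq2 (adjusted p = 0.00942), where 4.46% and 4.45% of all genes passed.

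TGIF1, a homeodomain corepressor that binds the SMAD complex, had 115, 122 and 120 CPM in the controls and 99.4, 97.4 and 111 CPM with TGF-β1. All 3 treated libraries were below the lowest control, by a small margin in replicate 3. The log2 difference of -0.21 (95% interval -0.47 to 0.051) did not pass (edgeR adjusted p = 0.422). SKI lies on chromosome 1 from 2228695 to 2310119, SKIL on chromosome 3 from 170357678 to 170396835 and TGIF1 on chromosome 18 from 3411608 to 3459978, all on the plus strand.

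The SMURF ligases are close relatives with like targets. SMURF1 had 86.8, 86.8 and 99.7 CPM in the controls and 94.4, 89.0 and 98.4 CPM with TGF-β1. Its log2 difference was 0.045, the smallest of the 10 in size (95% interval -0.23 to 0.32; adjusted p by edgeR = 0.889). SMURF2 had 145, 100.02 and 155 CPM in the controls and 289, 226 and 165 CPM with TGF-β1. All treated libraries were above the controls, replicate 3 only just. The means of SMURF2 were 133 ± 29.1 and 227 ± 62.5 CPM (SD, n = 3 per group), which is 1.70-fold or 0.77 ± 0.21 (SE) on the log2 scale, and SMURF2 missed the threshold (edgeR adjusted p = 0.146). It passed in the same 4 alternative fits as SKIL, with adjusted p of 0.0153 without TGF-β1 replicate 1 and 0.00796 without TGF-β1 replicate 3 by edgeR. SMURF1 lies on chromosome 7 from 99027438 to 99144100 and SMURF2 on chromosome 17 from 64542295 to 64662068, both on the minus strand. Exons of TRRAP on the opposite strand overlap 11.7% of the exon bases of SMURF1, and without strand their reads cannot be told apart. SMURF2 shares 2.40% of its exon bases with CEP95 on the opposite strand, and the pseudogene SMURF2P1 had 5 to 37 counts per library, so its reads may be split to a small extent.

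The order of levels was compared per length, as deposited FPKM (counts scaled by gene length and by library total). In the controls SKI was highest at 23.2 ± 1.23 FPKM, followed by SMURF2 at 18.4 ± 4.31, TGIF1 at 14.5 ± 0.342 and SMURF1 at 14.4 ± 1.35 (SD, n = 3). SMURF2, TGIF1 and SMURF1 overlapped in range. BAMBI at 6.16 ± 0.846 and SMAD7 at 5.24 ± 0.285 FPKM also overlapped, and PMEPA1 followed at 3.51 ± 0.509. SKIL had 1.15 ± 0.171, SMAD6 0.499 ± 0.0676 and LDLRAD4 0.0876 ± 0.0102 FPKM. With TGF-β1 the order had SMURF2 on top at 31.7 ± 9.12 FPKM, then SKI at 20.5 ± 1.79, SMURF1 at 15.03 ± 0.446 and TGIF1 at 12.7 ± 0.606, with SMURF2 and SKI overlapping in TGF-β1 replicate 3. PMEPA1, at 8.65 ± 2.62 FPKM, then stood above SMAD7 at 7.12 ± 1.35 and BAMBI at 5.26 ± 1.44, and its range overlapped both of theirs. SKIL had 2.55 ± 1.23, SMAD6 0.579 ± 0.118 and LDLRAD4 0.107 ± 0.0234 FPKM. For LDLRAD4 the length behind the authors' FPKM was 35895 bases, against 16759 exon bases in GENCODE 29, so its FPKM depends on the gene model.

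Ratios of related genes within each library, which do not depend on scaling, were compared for 4 pairs. They still carry differences between libraries that follow the GC content of transcripts, where the genes of a pair differ in it. The longest transcripts of SKIL and SKI have 33.4% and 59.95% GC, and those of SMURF2 and SMURF1 39.3% and 51.9%. For PMEPA1 and LDLRAD4 it is 53.8% and 45.2%, and for SMAD7 and SMAD6 58.7% and 58.9%. The log2 ratio of PMEPA1 to LDLRAD4 was 2.57, 2.82 and 2.64 in control libraries and 3.28, 3.95 and 3.78 in treated ones, so the groups were apart by a mean of 0.99. The log2 ratio of SMURF2 to SMURF1 was 0.74, 0.20 and 0.63 in control libraries and 1.62, 1.35 and 0.74 in treated ones; the groups touched at control replicate 1 and TGF-β1 replicate 3. Both pairs gave a two-sided exact permutation p of 0.1, the smallest that 3 against 3 samples allow, and an adjusted p of 0.2 over the 4 pairs by exact permutation. The log2 ratio of SKIL to SKI went from a mean of -4.09 ± 0.25 to -2.89 ± 0.90 (SD, n = 3; exact permutation p = 0.2, adjusted 0.267), with TGF-β1 replicate 3 at -3.87 inside the control range. The log2 ratio of SMAD7 to SMAD6 was 2.28 ± 0.18 in the controls and 2.51 ± 0.32 with TGF-β1 (exact permutation p = 0.3, adjusted 0.3).

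**Figure D2:**
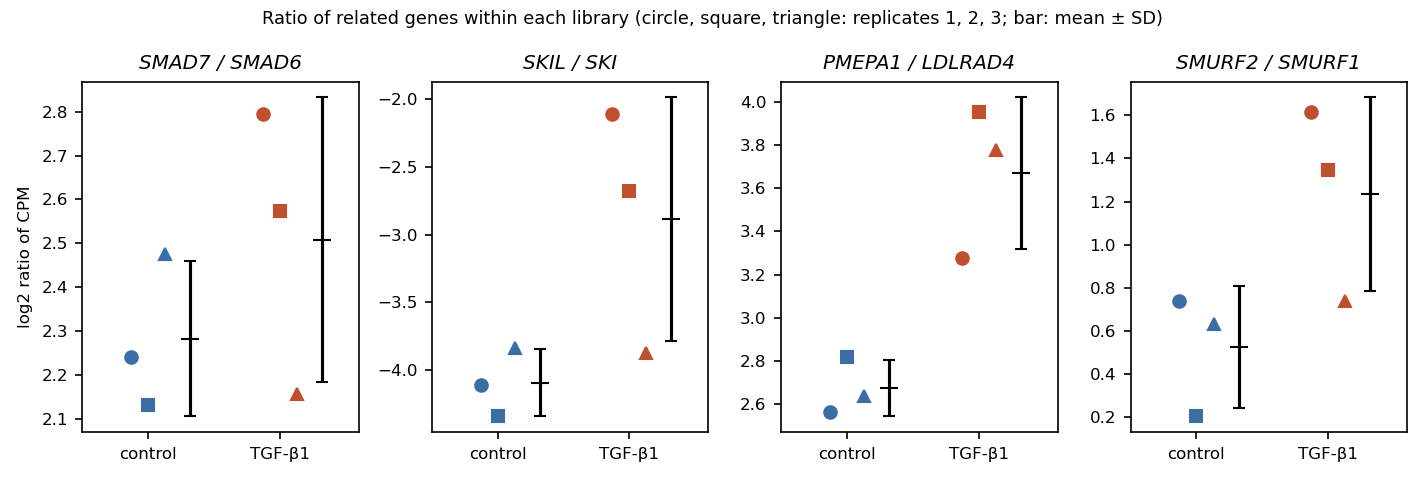
Log2 ratio of the CPM of related genes within each library (y axis, own range per pair) for control and TGF-β1; each symbol is 1 library and the bar is the mean ± SD of 3. The PMEPA1 to LDLRAD4 ratio of every treated library, 3.28 to 3.95, is above the controls, 2.57 to 2.82, while that of SKIL to SKI overlaps in TGF-β1 replicate 3.

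The spread of SKIL and SMURF2 among treated libraries went with the GC content of their transcripts. The longest transcript has 33.4% GC for SKIL and 39.3% for SMURF2, the lowest of the 10, with TGIF1 at 41.3%, LDLRAD4 at 45.2%, PMEPA1 at 53.8% and SKI highest at 59.95%. Over all tested genes the median log2 difference between groups was 0.51 for the 234 genes up to 35% GC, 0.44 for the 1946 genes from 35% to 40% and -0.12 for the 2169 genes from 55% to 60%. The trend of single libraries, read at the GC content of SKIL, was 0.69, 0.29 and -0.19 (log2) for the TGF-β1 libraries in replicate order, and for the control libraries -0.13, -0.38 and -0.18. This is the order of the SKIL and SMURF2 levels among the treated libraries. SKIL and SMURF2 were nevertheless above the median of their GC class, and TGIF1 was below its own.

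**Figure D3:**
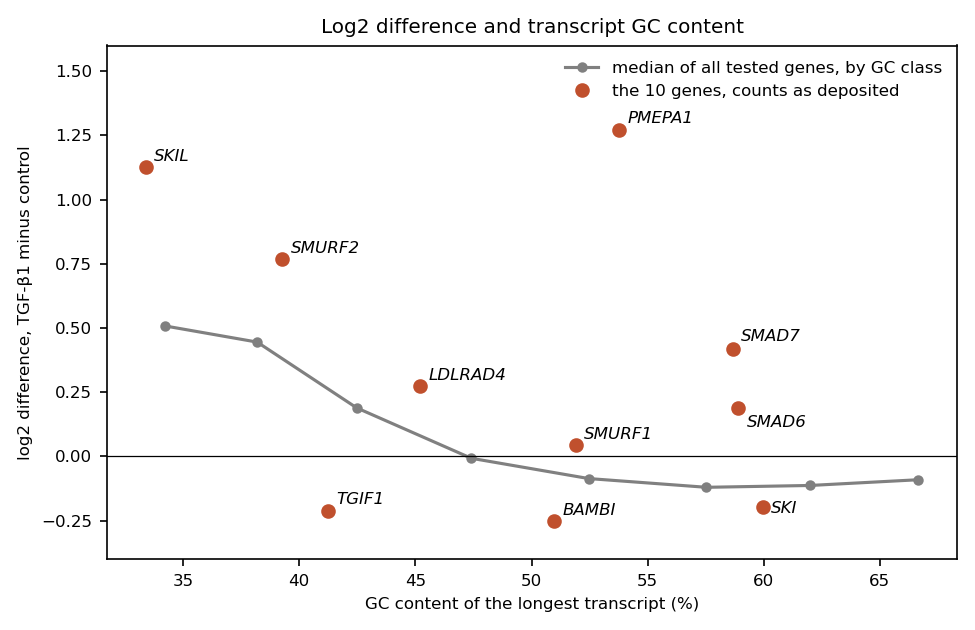
Log2 difference between TGF-β1 and control (y axis) against the GC content of the longest transcript in percent (x axis); red points are the 10 genes and the grey line joins the medians of all tested genes by GC class. The grey line falls from 0.51 at the lowest GC contents to about -0.12 at the higher ones, and PMEPA1 at 1.27 stands far above it.

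With the GC trend of each library removed, 2 of the 10 inhibitors passed, PMEPA1 and SMURF2, against a background of 3.24% of genes in either direction, 1.85% as higher and 1.39% as lower. The removal also takes out any difference between groups that follows GC content. PMEPA1 then had a log2 difference of 1.38 ± 0.18 (SE; edgeR adjusted p = 0.00141), and it passed without each of the 6 libraries in turn (edgeR adjusted p = 0.000379 to 0.0260). SMURF2 had 150, 131 and 159 CPM in the controls and 199, 197 and 189 CPM with TGF-β1 after removal, so the treated libraries came together. Its log2 difference was smaller, 0.41 ± 0.089 (SE), and passed (edgeR adjusted p = 0.0280), but it lost the call when any library other than control replicate 3 or TGF-β1 replicate 3 was left out (edgeR adjusted p up to 0.227). SKIL went to 9.18, 10.7 and 11.8 CPM in the controls and 17.9, 16.1 and 11.7 CPM with TGF-β1, and its log2 difference was 0.55 in place of 1.13 (edgeR adjusted p = 0.0900). TGF-β1 replicate 3 of SKIL still lay among the controls.

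SMAD7 moved the other way: its log2 difference was 0.55 after removal, close to the threshold (edgeR adjusted p = 0.0556), with 19.1, 19.3 and 21.4 CPM in the controls and 29.998, 34.1 and 23.1 CPM with TGF-β1. TGIF1 had a log2 difference of -0.44 (edgeR adjusted p = 0.148), and its groups then overlapped, with 117, 153 and 119 CPM against 74.3, 87.9 and 125 CPM. Removal widened its spread: the SD went from 7.27 to 26.2 CPM with TGF-β1, and it also rose from 3.65 CPM in the controls. The trend at its GC content was 0.42, 0.15 and -0.17 (log2) in TGF-β1 replicates 1 to 3. Before removal TGIF1 was highest in replicate 3 of these, at 111 CPM, where the trend was lowest. Whether the trend suits this gene was not tested. After removal the groups did not overlap for SMAD7, PMEPA1 and SMURF2, all higher with TGF-β1, and for 0 genes of the 10 as lower; the background was 12.1% and 11.4%. The remaining 5 genes did not pass in either fit, and their log2 differences after removal were 0.31 for SMAD6, 0.20 for LDLRAD4, 0.13 for SMURF1, -0.078 for SKI and -0.17 for BAMBI. Without TGF-β1 replicate 3 as well, SMAD7, SKIL, PMEPA1 and SMURF2 passed as higher and TGIF1 as lower, in a fit where 9.83% of all genes passed.

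**Figure D4:**
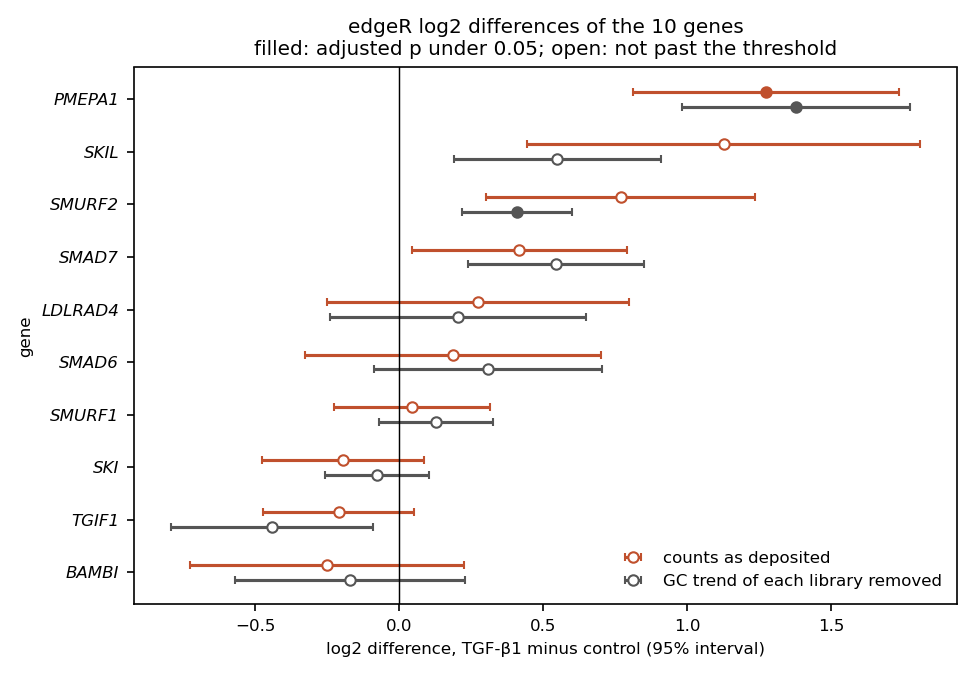
Log2 difference between TGF-β1 and control (x axis) with its 95% interval for each of the 10 genes (y axis), from the counts as deposited (red) and with the GC trend of each library removed (grey); filled points passed an adjusted p of 0.05. PMEPA1 is filled in both fits, SMURF2 only after removal, and SKIL shrinks from 1.13 to 0.55.

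Other genes of the cascade were read from 4 lists chosen with earlier results of these data known. Of 25 further regulators of the pathway and their partners, not all of which inhibit it, 0 passed, against 0.366% of all genes tested. Their median log2 difference was 0.060. The largest differences were 0.84 for USP15, a deubiquitinase of the receptor complex (edgeR adjusted p = 0.210), 0.76 for TRIM33, a SMAD-binding ubiquitin ligase (0.216), and 0.74 for the ubiquitin ligase gene RLIM (0.212). The transcripts of these 3 have 36.5% to 39.0% GC, and with the GC trend removed their log2 differences were 0.33, 0.36 and 0.33. By edgeR 0 of 21 tested ligands, receptors and SMADs passed either, against the same 0.366%. SMAD1, a BMP-responsive SMAD, had the largest difference there (log2 1.09, edgeR adjusted p = 0.0752) and passed with the GC trend removed (log2 0.73, edgeR adjusted p = 0.0175). TGFB2, a ligand, had a log2 difference of 0.88 (edgeR adjusted p = 0.124) and BMPR2, a BMP receptor, 0.79 (0.105).

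BMP response genes were examined because SMAD6, SMAD7 and BAMBI are also known BMP targets. The list also holds secreted BMP antagonists such as NOG and CHRDL1, so it does not measure BMP response alone. Of 13 tested, 0 passed, against 0.366% of all genes, and the median log2 difference was -0.25, against 0.0070 over all genes. This median was -0.19, against 0.00054 over all genes, with the GC trend removed. ATOH8, a BMP-induced transcription factor, had 1.76 CPM in controls and 0.526 CPM with TGF-β1 on average (log2 difference -1.75, edgeR adjusted p = 0.0933). ID1, a BMP target, had 70.2 and 41.9 CPM (log2 difference -0.74, edgeR adjusted p = 0.0542). The BMP antagonist NOG had a log2 difference of -0.51 (edgeR adjusted p = 0.384). With the GC trend removed, 3 passed as lower: ID1 (edgeR adjusted p = 0.00269), ATOH8 (0.0382) and CHRDL1 (0.0290), a secreted BMP antagonist. In that fit 1.39% of all genes passed as lower, and ATOH8 had only 5 to 30 counts per library. SMAD6, SMAD7 and BAMBI did not pass in that fit, with log2 differences of 0.31, 0.55 and -0.17.

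Of 23 tested TGF-β response genes, 6 rose and 0 fell: FN1, TGFBI, TAGLN, LTBP2, MMP2 and COL4A1, with log2 differences of 0.87 (COL4A1) to 1.85 (FN1). The other 17 were not called, and the median log2 difference of the 23 was 0.32. Of all 14463 genes, 0.187% passed as higher and 0.180% as lower. With the GC trend removed 9 of the 23 passed as higher and 0 as lower, against 1.85% and 1.39% of all genes. PMEPA1, at 1.27, lay within the range of these 6, and the other 9 inhibitors were not called. The genes most like PMEPA1 in their pattern over the 6 libraries were found by the root mean square difference of centred log2 CPM among 9303 genes with a mean of at least 10 CPM. They were LTBP2, a matrix protein of the latent TGF-β binding family (difference 0.20), COL4A1, a basement membrane collagen (0.25), the chemokine gene CXCL12 (0.25), the tropomyosin gene TPM1 (0.26) and SCG5 (0.26). LTBP2 had 20.1, 25.6 and 24.4 CPM in the controls and 57.8, 62.1 and 58.9 CPM with TGF-β1. The nearest of the other inhibitors was SMAD7 at 0.44, and the farthest was BAMBI at 0.79.

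The libraries held 13866957 to 17694675 counts, and a count of 3, taken as the floor, was 0.170 to 0.216 CPM, which covers counting error only. No 2 replicates were duplicates: the chi-square between libraries of 1 group was 4.86 to 41.1 per degree of freedom. Stellate cell genes were mixed: the control means were 1331 CPM for COL1A1, 1418 CPM for VIM and 47.7 CPM for PDGFRB, but 2.22 CPM for COL1A2, with DES at 1 to 5 counts per library and LRAT, of vitamin A storage, at 0 to 2 counts. Of 13 stellate markers 8 were tested, and from the counts as deposited 1 rose, COL3A1 (log2 difference 0.71, edgeR adjusted p = 0.0350). Of all genes tested, 0.187% passed as higher in that fit. With the GC trend removed 2 of the 8 passed as higher, COL1A1 among them (log2 difference 0.53, edgeR adjusted p = 0.00560), against 1.85% of all genes. Summed levels of the hepatocyte markers were 50.3 to 54.1 CPM in controls and 57.2 to 72.5 CPM with TGF-β1, almost all from SERPINA1 and CPS1, and of the leukocyte markers 13.4 to 17.99 and 11.5 to 11.9 CPM, mostly CD14. Endothelial markers summed to 4.28 to 6.27 and 4.54 to 4.85 CPM, and epithelial markers to 1.35 to 1.63 and 1.29 to 2.31 CPM; no tested marker of these 4 lists passed. The defining markers APOA1 and EPCAM had 0 or 1 count in each library. Their part in the results was not tested. In bulk RNA, fewer cells that express a gene and less RNA per cell cannot be told apart.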

How the data were processed

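The authors deposited 1 table of 27830 genes with raw read counts and FPKM values for 6 samples, per the file headers. The submitters' processing notes name HISAT2, HTSeq 0.13.5 and GRCh38; for the annotation release, nothing is given in the sources used here. The library kit was NEBNext Ultra RNA, which does not mark strand, per the labels' protocols. The deposited FPKM matched the counts with the table total and a whole-number length per gene.

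The count test was that of edgeR 4.0.16, run in R 4.3.3 (quasi-likelihood F test, robust, TMM, filterByExpr), with Benjamini-Hochberg adjustment over 14463 genes and calls at 0.05. SE is the log2 difference divided by the root of F, and the 95% interval uses the test's degrees of freedom. GC content came from the longest GENCODE 29 transcript (26968 genes matched, 862 not). The GC trend of each library was a loess curve (span 0.5) used as an offset. Scripts were tested on simulated data. Alternatives included DESeq2 1.42.0 and limma 3.58.1. Promoter windows are RefSeq, GRCh38.p14. The genes, lists and the GC step were chosen with earlier results of these data known. All 10 inhibitors are named. From each list, called genes and the 3 largest differences are named, plus the 5 genes most like PMEPA1. CHRDL1, ACTA2, PDGFRA, DCN and LUM were added after their values were seen.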

Additional observations from a re-analysis of the deposited data

How the results depend on the processing

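Of the 10 inhibitors, 1 was called higher and 0 lower. None was called with library totals only (0), limma on log2(FPKM + 1) (0) or limma on log2(FPKM + 0.1) (0); the adjusted p of PMEPA1 by limma was 0.0715 and 0.0516 on FPKM. Without a filter on low counts and with DESeq2, 3 were called (PMEPA1, SKIL and SMURF2), with 4.46% and 4.45% of all genes called. With the GC trend removed 2 were called. Leaving out 1 library gave 0 to 3 calls higher and 0 lower, and with the GC trend removed 1 to 4 higher and 0 to 1 lower. SKIL and SMURF2 were called without TGF-β1 replicate 1 (edgeR adjusted p = 0.0365 and 0.0153) and without TGF-β1 replicate 3 (0.00466 and 0.00796). The cause was not tested. No inhibitor that was called changed sign. SMURF1, not called, was at -0.015 to 0.10 (log2) without 1 library, below 0 without control replicate 2. The pair ratios kept their direction when any 1 library was left out. FPKM ratios differ from CPM ratios by a constant, so they give the same difference between groups. The pair ratios with the GC trend removed were not tested. For the single genes, removal took the log2 difference of SKIL from 1.13 to 0.55 and of SKI from -0.20 to -0.078. That of SMURF2 went from 0.77 to 0.41 and of SMURF1 from 0.045 to 0.13. PMEPA1 went from 1.27 to 1.38 and LDLRAD4 from 0.27 to 0.20, SMAD7 from 0.42 to 0.55 and SMAD6 from 0.19 to 0.31.

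A fit with a replicate block made 3 calls (PMEPA1, SKIL and SMURF2) with 3.64% of all genes called, and 1 with the GC trend removed as well. The pairing check gave correlations of 0.156, 0.0892 and -0.323 between deviations of samples with equal numbers, and control replicates 2 and 3 correlated best with other numbers, so the numbers were not taken as pairs. SMAD6 and LDLRAD4 had the fewest counts of the 10, with 40 to 94 per library; whether depth limits their test was not tested.
Over all genes tested, 53 were called by edgeR, 111 with upper quartile scaling, 1240 with no filter, 590 by DESeq2, 527 with the replicate block, 468 with the GC trend removed and 4 to 1671 without 1 library, the highest without TGF-β1 replicate 3 and the lowest without TGF-β1 replicate 2.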
